A study of Homo sapiens with 6 samples.

Results

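CTCF occupancy was examined at the genes of its own machinery: CTCF itself and 7 genes of cohesin, the ring complex that CTCF stops on DNA. The 8 genes were RAD21, SMC3 and STAG1, which encode cohesin subunits, NIPBL and MAU2, which encode the loader, and PDS5A and PDS5B, which encode regulators bound to the ring. They were taken as a named list, and the CTCF peaks lying in the hg19 gene body or within 10 kb of either end were collected. Their windows held 36 merged regions (stretches where peaks of at least 1 list overlap) of 60235 in the whole series, and 64 regions when 50 kb was allowed. Cells were HCT-116, an established human colon cancer line, without treatment. WT is the wild-type population, and D3 and E4 are a pair of clones of the same line that the labels describe as carrying a CTCF mutation, with no further detail. The title speaks of a distal binding site, so whether the CTCF gene or a site it binds was altered is not stated. Each population is 1 CTCF library, each clone is a single clone, and the 3 no-antibody samples were not analysed here. No difference below therefore has a replicate check or a p-value.

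Cohesin is a ring of SMC proteins closed by RAD21. NIPBL with MAU2 loads it and drives the extrusion of chromatin loops, STAG1 joins it to DNA and to CTCF, and PDS5A and PDS5B help either to release or to hold it. CTCF, a zinc-finger protein, binds an oriented motif and halts the moving ring, so that loop ends come to lie at CTCF sites. These genes are active in nearly every dividing cell, and their promoters are rich in CG pairs.

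The promoters of 5 of the 8 genes carried a CTCF peak in all 3 lists, namely those of CTCF, STAG1, NIPBL, PDS5A and PDS5B, where promoter means within 1 kb of the gene start. The share of all genes with such a peak was not computed, since hg19 starts of all genes were not used here, so this count has no background. RefSeq promoter sequences (250 bases before to 50 after the start) were found for 7 of the 8 genes. They were searched on both strands for 4 core words of 7 letters from the middle of the CTCF motif. The words were AGGGGGC, then AGGTGGC, then AGAGGGC, and last AGATGGC, and no matches overlapped each other in these promoters. Of the 35116 RefSeq promoters in the table, 30.5% held at least 1 such word and 6.56% held 2 or more. The sequences are shown for STAG1, which had the strongest promoter peak, for the paralogues PDS5A and PDS5B, for CTCF, and for SMC3, which had no promoter peak in any list. On GRCh38.p14, a later build than that of the peaks, they are chr3:136752329-136752628 (minus strand) for STAG1, chr13:32586202-32586501 (plus strand) for PDS5B, chr4:39977862-39978161 (minus strand) for PDS5A, chr16:67562276-67562575 (plus strand) for CTCF and chr10:110567445-110567744 (plus strand) for SMC3. They read 5′ to 3′ along the gene, and capitals mark the core words or their reverse complements.
STAG1: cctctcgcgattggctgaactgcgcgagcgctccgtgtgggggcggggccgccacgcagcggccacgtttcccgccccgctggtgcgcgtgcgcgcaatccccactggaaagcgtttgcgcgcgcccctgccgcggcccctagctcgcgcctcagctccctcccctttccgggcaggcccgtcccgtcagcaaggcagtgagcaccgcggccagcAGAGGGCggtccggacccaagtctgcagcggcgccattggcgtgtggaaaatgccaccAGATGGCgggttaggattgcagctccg
PDS5B: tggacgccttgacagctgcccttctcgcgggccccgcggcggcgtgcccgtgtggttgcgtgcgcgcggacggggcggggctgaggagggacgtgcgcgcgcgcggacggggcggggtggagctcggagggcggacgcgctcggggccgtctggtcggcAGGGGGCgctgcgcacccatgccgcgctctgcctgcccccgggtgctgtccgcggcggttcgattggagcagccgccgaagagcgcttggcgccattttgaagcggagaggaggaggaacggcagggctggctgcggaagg
PDS5A: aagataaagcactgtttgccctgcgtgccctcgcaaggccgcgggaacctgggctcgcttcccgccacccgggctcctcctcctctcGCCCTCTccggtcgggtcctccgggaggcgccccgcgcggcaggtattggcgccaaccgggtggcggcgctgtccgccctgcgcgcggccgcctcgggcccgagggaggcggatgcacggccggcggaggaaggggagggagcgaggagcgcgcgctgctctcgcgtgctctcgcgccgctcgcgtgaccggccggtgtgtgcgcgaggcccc
CTCF: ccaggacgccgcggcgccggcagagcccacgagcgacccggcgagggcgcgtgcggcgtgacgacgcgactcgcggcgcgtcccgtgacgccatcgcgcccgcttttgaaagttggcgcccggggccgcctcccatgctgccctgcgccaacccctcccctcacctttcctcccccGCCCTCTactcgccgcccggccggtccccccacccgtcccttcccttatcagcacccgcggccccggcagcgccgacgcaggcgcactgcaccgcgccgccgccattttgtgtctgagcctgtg
SMC3: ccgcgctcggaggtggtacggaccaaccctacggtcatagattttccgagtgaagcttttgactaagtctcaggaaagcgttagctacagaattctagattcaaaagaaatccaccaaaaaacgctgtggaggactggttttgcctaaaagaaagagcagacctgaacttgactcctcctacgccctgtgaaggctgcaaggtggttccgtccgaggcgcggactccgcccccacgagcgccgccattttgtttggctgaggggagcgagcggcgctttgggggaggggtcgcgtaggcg

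STAG1 held 2 words, both forward, and PDS5B held 1 forward word, AGGGGGC. PDS5A and CTCF each held 1 word on the reverse strand. SMC3, NIPBL and MAU2 held none, although NIPBL had a promoter peak in all 3 lists and MAU2 had one in D3. Core words were thus seen in 4 of the 5 promoters with a peak in every list and in 0 of the other 2 that were matched. In a wider list of 17 other pathway genes the split held only in part. STAG2 and CTCFL, with a promoter peak in all 3 lists, held core words at some of their starts. SMC1A, WAPL, CDCA5, HDAC8, SGO1, ESPL1, PTTG1 and SMC1B held no word and had no promoter peak. ZNF143 held none and had a promoter peak in D3, and ESCO1 and ESCO2 had no sequence to search. Against the split, REC8, STAG3, YY1 and MAZ held core words without a promoter peak in any list. At YY1 and MAZ, though, a region called in all 3 lists began 1.07 kb and 1.45 kb from the start, just outside the 1 kb limit. The gene lengths used for YY1, STAG3, CTCFL and CDCA5 also differed from RefSeq, by 7.73%, 11.9%, 23.4% and 71.1%. REC8 had no peak in any list within 10 kb. The GC content was 71.3% for STAG1, 75.7% for PDS5B, 76.0% for PDS5A, 75.3% for CTCF and 67.0% for NIPBL, against 56.0% for SMC3, 58.7% for MAU2 and a median of 58.7% over all promoters. A word found or not found describes these letters only, and GC-rich windows were not compared separately.

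The lists themselves differ in length. D3 held 57935 peaks, E4 39434 and WT 38645, with median widths of 873 bp, 750 bp and 639 bp. Read numbers were not in the tables, so depth is unknown, and the authors' fold enrichment and −log10 q were used only to describe or rank a peak within its own list. The rank is given as a percentile, the share of the list with a −log10 q at or below that of the peak, so that 100 is the strongest peak. Behind each share stands the 95% Clopper-Pearson interval, an exact binomial one that knows of counting error alone.

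Of the 23 WT peaks in the 8 windows, D3 overlapped 23 (100%, 85.2% to 100%), where D3 overlapped 95.9% of all WT peaks. E4 overlapped 21 (91.3%, 72.0% to 98.9%), where it overlapped 85.7% of all WT peaks. Both clones overlapped the same 21, against 85.4% genome-wide. Each interval holds the genome-wide share, so the retention of WT peaks at these genes was not distinguishable from that of the list as a whole. Both WT peaks that E4 lacked were at RAD21, and over the other 7 genes E4 overlapped 21 of 21.

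Of the 36 regions, 22 (61.1%, 43.5% to 76.9%) were called in all 3 lists, against 53.9% of all regions. D3 alone called 9 (25.0%, against 26.1%), both clones without WT called 3 (8.33%, against 9.31%), and D3 with WT but without E4 called 2 (5.56%, against 6.62%). These shares lay close to those over the genome. No region was called by E4 alone, by WT alone or by E4 with WT, for which 36 regions give an exact upper limit of 9.74% each. D3 thus had a peak in every region of the windows, in the list that is also the longest. The 9 regions called in D3 alone had percentiles of 10.7 to 44.8 in D3 (median 18.9), close to the median of 17.2 over all regions called in D3 alone. With every list held to its 38645 strongest peaks, D3 alone called 2 of 29 regions (6.90%, against 6.09% of all regions) and E4 alone called 1 (3.45%, against 6.52%). Regions called in all 3 lists were then 22 (75.9%, against 65.5%).

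**Figure D1:**
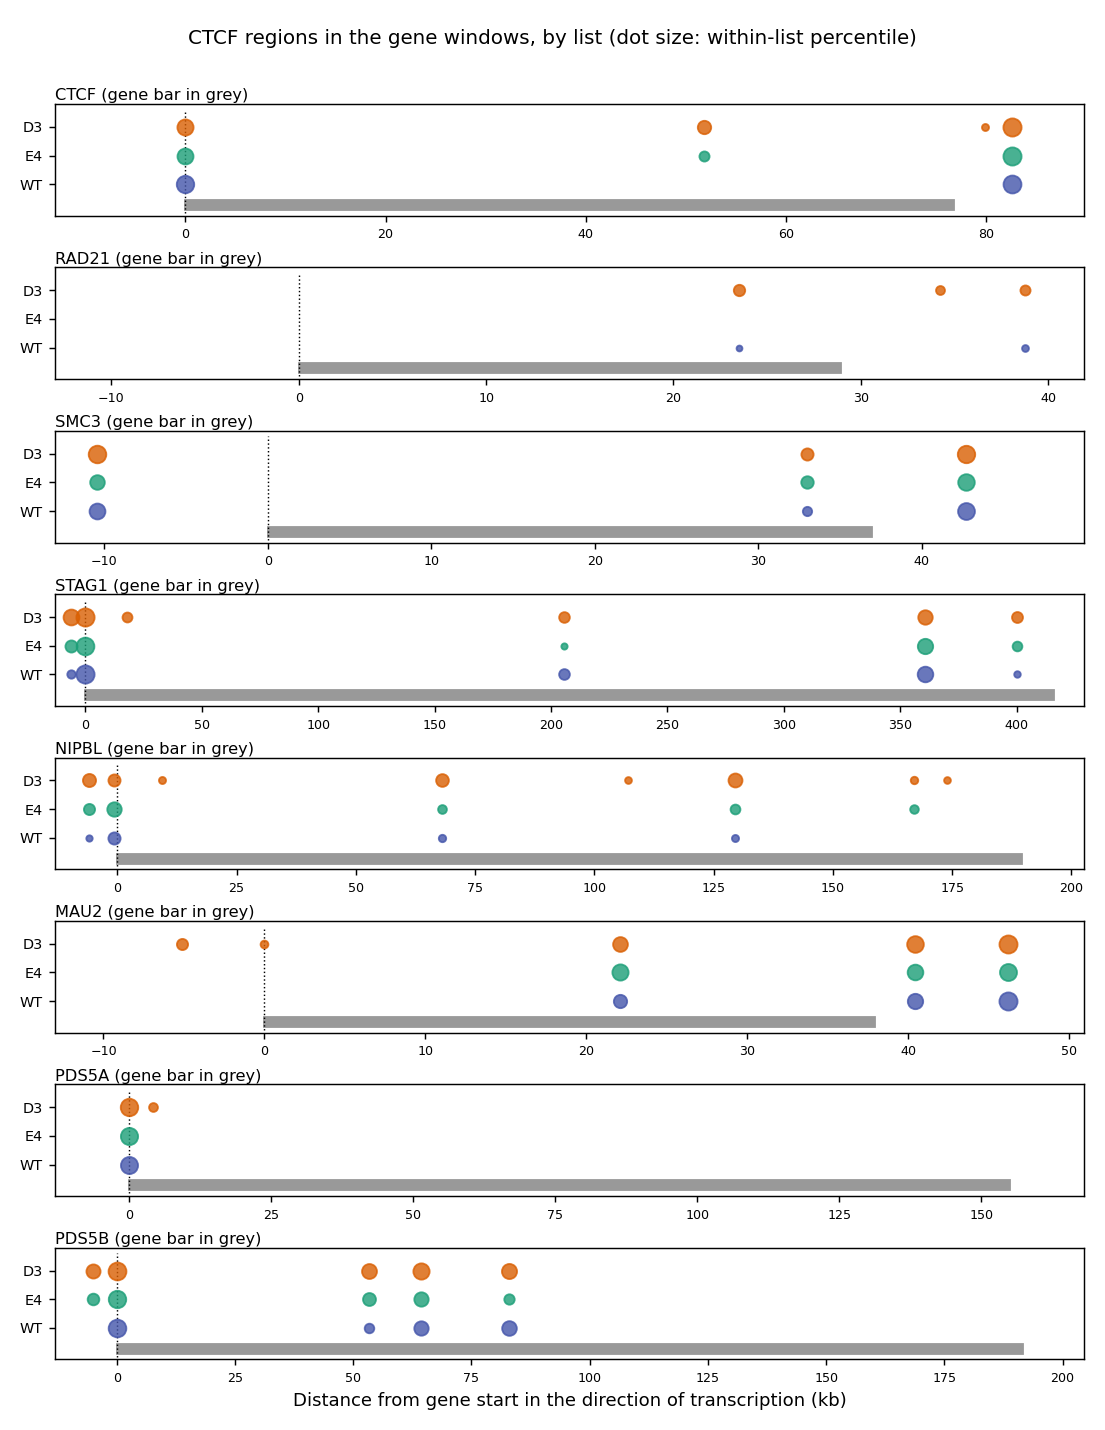
CTCF regions in the window of each gene, by list, with distance from the gene start on the horizontal axis (kb, a separate scale per panel, downstream to the right) and the gene as a grey bar. Each dot is the centre of a region in a list that calls it, placed on the gene start if it covers it, and its size grows with the within-list percentile; large dots sit at the starts of CTCF, STAG1, PDS5A and PDS5B, and E4 has no dot at RAD21.

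By the median of each place, promoter peaks ranked highest in all 3 lists, though in D3 only narrowly above the downstream flank. At CTCF and MAU2 a flank region outranked the promoter. At NIPBL this was so in D3 only, where the upstream flank region (60.0) and some intragenic regions outranked the promoter (52.1). Across the 5 promoters called in every list the WT percentile was 52.8 to 99.2 with a median of 93.6, the E4 percentile 70.1 to 96.0 with a median of 91.6, and the D3 percentile, with MAU2 as a sixth promoter, 18.9 to 99.4 with a median of 88.6. The 18 regions inside gene bodies had a median of 49.6 for D3, 37.7 for E4 and 32.7 for WT, each over the regions that list called (18, 12 and 11). Of these 18, 10 were called in all 3 lists and 5 in D3 alone. Regions beyond the gene ends ranked high in some genes, and their medians downstream were 87.6 in D3 (7 regions), 88.5 in E4 (4) and 89.05 in WT (5). Promoter regions were also the widest, at a median of 1554 bp against 988.5 bp inside genes.

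**Figure D2:**
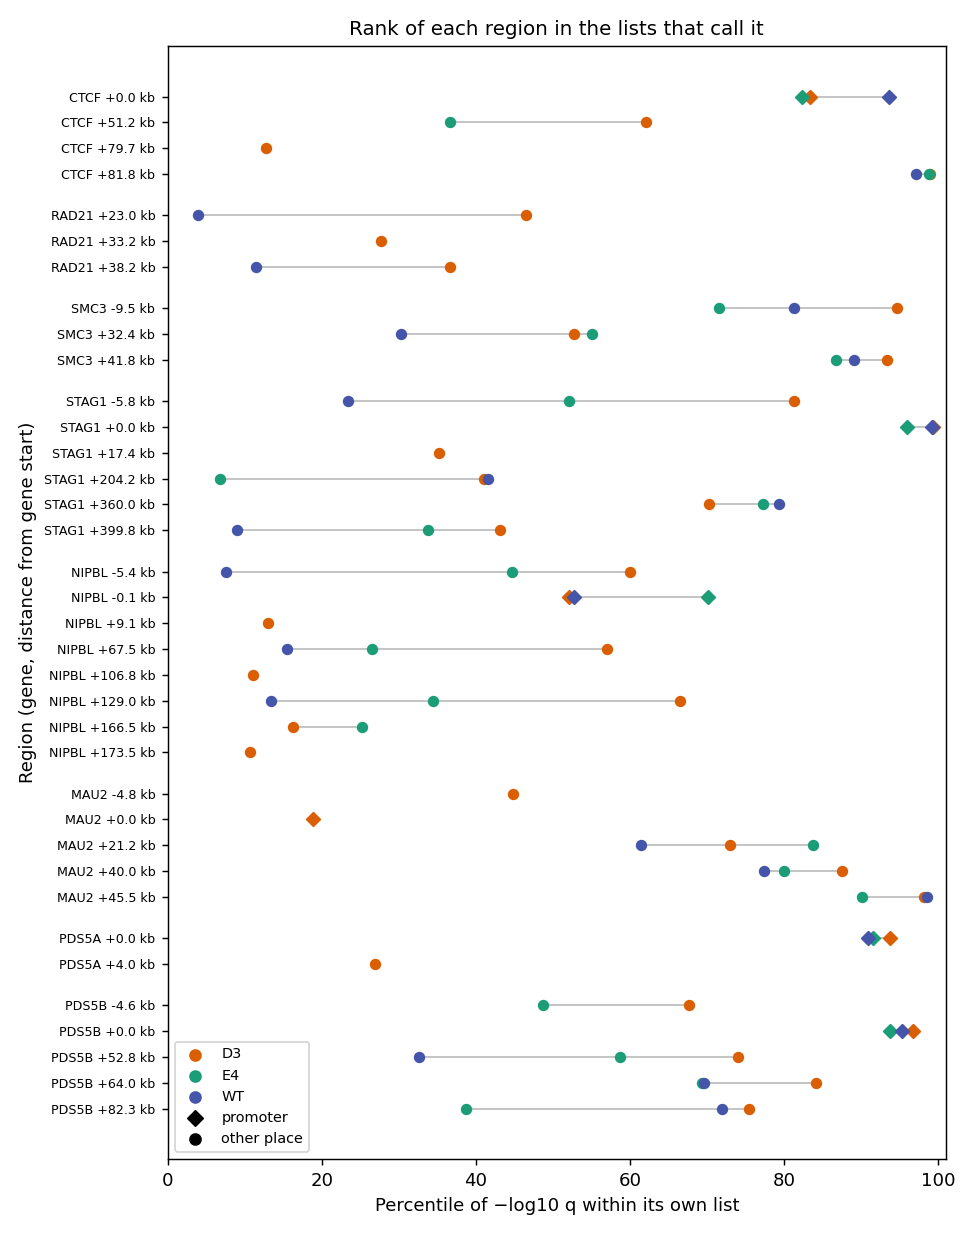
Within-list percentile of −log10 q (horizontal axis) for each of the 36 regions, named by gene and distance from the gene start; colours are the lists, diamonds are promoter regions and grey lines join the lists that call a region. The promoter diamonds of STAG1, PDS5A and PDS5B lie above 90 in all 3 lists, while NIPBL has no point above 71.

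At its own gene, CTCF had 4 regions on chromosome 16. The promoter region chr16:67596084-67597559 (1476 bp) covered the gene start and was called in all 3 lists, with a fold enrichment in D3 of 8.58, in E4 of 6.64 and in WT of 9.81. Its percentile was 83.4 in D3, 82.3 in E4 and 93.6 in WT. It therefore stood higher in the WT list than in either clone's list. Ranked only among the 32495 regions that all 3 lists call, it lay 21.7 points higher in WT than in D3 and 13.8 points higher than in E4. Over all such regions these differences had medians of 0.0215 and −0.271, with 5% of regions under −31.7 and −32.1 and 5% over 31.3 and 32.8, so by −log10 q the shift at the CTCF promoter lay inside the range of most regions. Ranked by the authors' fold enrichment, an alternative chosen after seeing the data, it was 46.5 points for D3 and 48.2 points for E4. That lay above the 95% point of all such regions, 37.7 and 38.4, so the reading depends on which value ranks the peaks. Both shifts use the same WT library.

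The strongest region of the CTCF window was not in the gene. It lay 5.00 kb beyond the gene end at chr16:67678087-67679743, on the side of the neighbouring gene CARMIL2, and reached the 98.9th percentile in D3, the 98.8th in E4 and the 97.1st in WT. An intragenic region 51.2 kb from the start, chr16:67647477-67648712, was called in D3 (62.0th percentile) and E4 (36.7th) and not in WT, whose nearest peak was 29.7 kb away. A 274 bp region at chr16:67675988-67676261 was called in D3 alone, at the 12.8th percentile. Both WT peaks at CTCF were thus overlapped by both clones, and the clones had further peaks in the gene.

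RAD21, the subunit that closes the ring, was the member whose strongest peak within 10 kb had the lowest percentile, in D3 and WT alike, although its small window held 4.09 WT peaks per 100 kb, the second highest density of the 8. It lies on distal 8q, and its window held 3 regions, none at the promoter. D3 had a peak in all 3, WT in 2 and E4 in none. The intragenic region chr8:117863096-117864145 lay 22.96 kb from the start, at the 46.5th percentile in D3 (fold 5.50) and the 3.85th in WT (fold 3.25). Past the gene end, chr8:117847818-117848892 was at the 36.6th percentile in D3 and the 11.4th in WT, and chr8:117851845-117853873 was called in D3 alone at the 27.6th. Both WT peaks were therefore weak ones, close to the calling limit of their list.

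The nearest E4 peaks were 35.3 kb to 46.6 kb from these 3 regions. With 50 kb on each side, 3 more regions appeared upstream of RAD21, all called in all 3 lists, and E4 then overlapped 3 of 5 WT peaks. The strongest, chr8:117899257-117900836, lay 12.2 kb upstream of the start, just outside the 10 kb window, at the 92.0th percentile in D3, the 88.2nd in E4 and the 97.4th in WT. The next, chr8:117919975-117920944, was at the 56.1st, 16.8th and 71.4th percentile in D3, E4 and WT. The last, chr8:117924643-117925682, was at the 37.2nd, 40.8th and 60.9th. All 3 ranked highest in WT, and the absence of E4 peaks at RAD21 did not extend to its upstream side.

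E4 was also the lower list around RAD21. Within 2.5 Mb of its start and outside its window, 34 regions were called in all 3 lists, and WT ranked them above E4 in 29. The median difference between WT and E4 was 17.0 points (range −18.2 to 78.4), while that between WT and D3 was 1.04 points, WT being higher in 18. In the RAD21 window, the 2 regions called in D3 and WT stood higher in D3 by within-list percentile. All regions called in D3 and WT but not E4 also had a higher median in D3, 36.2 against 17.6 in WT. These percentiles come from lists of unequal length and cannot be set against the ranks around the gene. In the surroundings E4 overlapped 34 of 46 WT peaks (73.9%, 58.9% to 85.7%) and D3 overlapped 42 (91.3%, 79.2% to 97.6%). What part this stretch has in the missing E4 peaks at RAD21 was not tested.

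**Figure D3:**
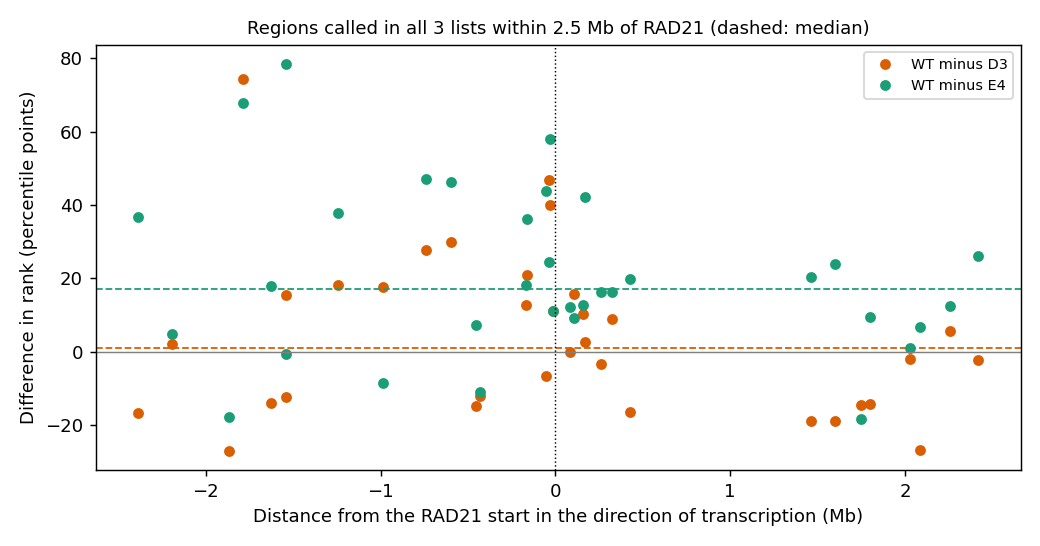
Difference in rank (percentile points among regions called in all 3 lists, vertical axis) between WT and each clone for the 34 regions within 2.5 Mb of RAD21, by distance from its start (Mb). Dashed lines are medians; green points (WT minus E4) lie above 0 in 29 of 34 regions, with a median of 17.0.

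SMC3, an ATPase subunit of the ring, had 3 regions on chromosome 10, all called in all 3 lists and none at the promoter. The closest to the start, chr10:112316046-112317927, lay 9.52 kb upstream and entered the 10 kb window through its D3 peak alone. It was at the 94.7th percentile in D3, the 71.6th in E4 and the 81.4th in WT. The intragenic region chr10:112359816-112361071, near the end of the gene, was at the 52.7th, 55.1st and 30.2nd percentile in the same order. A region 4.85 kb past the gene end, chr10:112369241-112371021, was at the 93.4th, 86.8th and 89.05th percentile. SMC3 thus had strong CTCF regions on both sides of the gene and a weaker one inside it.

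The 2.5 Mb around SMC3 kept fewer WT peaks than the genome. Outside its window E4 overlapped 50 of 70 WT peaks (71.4%, 59.4% to 81.6%) and D3 60 of 70 (85.7%, 75.3% to 92.9%), both intervals lying below the genome-wide shares, and 9 of the 70 had no peak in either clone. In the SMC3 window both clones overlapped 2 of 2 WT peaks, too few to set against the surroundings. Among the 8 surroundings SMC3 was the only one where the D3 interval lay below the genome-wide share. For E4 the upper limit at RAD21 was 85.7%, equal to the genome-wide share at this rounding, and the other 6 intervals held that share. These are 16 intervals looked at together, with no test of a difference. The WT peaks around SMC3 had a median percentile of 42.4, the lowest of the 8 surroundings. PDS5A was next at 43.2, and RAD21 stood at 60.5. What part the strength of the WT peaks has in these shares was not tested.

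**Figure D4:**
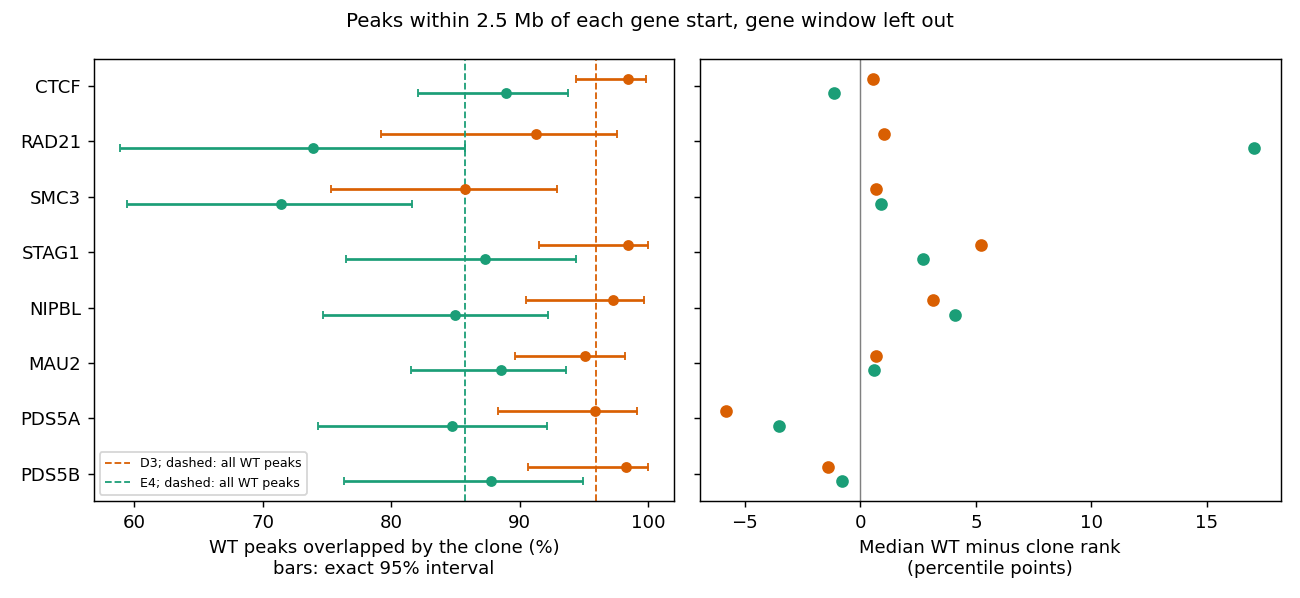
Left, share of WT peaks within 2.5 Mb of each gene start (gene window left out) that D3 or E4 overlaps, with exact 95% intervals, and dashed lines for all WT peaks; right, median difference in rank between WT and each clone over regions called in all 3 lists there. RAD21 stands at 17.0 points for E4, and SMC3 has the lowest shares for both clones (85.7% and 71.4%).

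STAG1, the subunit that joins the ring to CTCF, had the strongest promoter of the group. The region chr3:136470502-136472132 (1631 bp) covered the start, and its fold enrichment was 20.9 for D3, 10.8 for E4 and 12.2 for WT, at the 99.4th, 96.0th and 99.2nd percentile. All 5 WT peaks of its 416 kb gene and flanks were overlapped by both clones. Upstream by 5.79 kb, chr3:136477013-136478067 was at the 81.3rd percentile in D3, the 52.1st in E4 and the 23.4th in WT, and it had the largest difference of the 22 shared member regions, 51.6 points lower in WT than in D3 (−51.6). So the promoter ranked alike in D3 and WT while its upstream neighbour did not.

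Deep inside STAG1, regions were far apart. At 204 kb from the start, chr3:136264399-136266983 was at the 41.1st percentile in D3, the 6.72nd in E4 and the 41.6th in WT. At 360 kb, chr3:136109918-136111200 was at the 70.3rd, 77.3rd and 79.3rd. At 399.8 kb, chr3:136070589-136071436 was at the 43.2nd, 33.8th and 8.97th. Of these intragenic regions the one at 360 kb was the strongest in each list. A region 17.4 kb from the start, chr3:136453122-136453810, was called in D3 alone at the 35.2nd percentile.

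NIPBL, the larger subunit of the loader, had most regions, 8, and no strong one. The promoter region chr5:36875781-36876768 ended 93 bp before the gene start and was at the 52.1st percentile in D3, the 70.1st in E4 and the 52.8th in WT. It is the only promoter of the 5 with a percentile under 80 in any list. Upstream by 5.43 kb, chr5:36870359-36871435 was at the 60.0th percentile in D3, the 44.6th in E4 and the 7.59th in WT. The intragenic regions chr5:36944340-36945406, at 67.5 kb, and chr5:37005847-37006758, at 129 kb, were at the 57.1st and 66.5th percentile in D3, the 26.5th and 34.5th in E4, and the 15.5th and 13.4th in WT. All 3 regions outside the promoter ranked lower in WT than in either clone.

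Over the 4 NIPBL regions called in all 3 lists, the median difference in rank was −23.7 points between WT and D3 and −17.5 points between WT and E4, WT being lower. WT was lower than E4 in 4 of 4 and lower than D3 in 3 of 4, the promoter being the exception at 24.1 points. With ranks by fold the medians were −29.5 and −24.2. The surroundings of NIPBL gave 3.14 and 4.08 points, of the opposite sign. Both differences use the same WT library, so they are not independent of each other, and 4 regions of 1 gene are not replicates. The other 4 NIPBL regions were weak: chr5:37043341-37044237 was called in D3 (16.2nd percentile) and E4 (25.2nd), and chr5:36885980-36886670, chr5:36983650-36983997 and chr5:37050346-37051272 in D3 alone at the 13.1st, 11.04th and 10.7th.

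MAU2, the smaller loader subunit, had 5 regions on chromosome 19, and its strong ones lay past the 3′ end. A region 7.61 kb beyond the gene, chr19:19477178-19478430, on the side of GATAD2A, was at the 98.2nd percentile in D3, the 90.1st in E4 and the 98.6th in WT. A second, 2.01 kb beyond the gene at chr19:19471578-19472533, was at the 87.6th, 80.0th and 77.4th. In the gene body chr19:19452867-19454529, 21.2 kb from the start, was at the 73.0th, 83.8th and 61.4th. These 3 regions account for all MAU2 peaks of E4 and WT.

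The MAU2 promoter region, chr19:19431273-19431939, was called in D3 alone at the 18.9th percentile, with a fold of 3.71. It disappeared when the D3 list was held to a −log10 q of 5 or to the 38645 strongest peaks. A region 4.75 kb upstream, chr19:19426137-19426877, was also called in D3 alone, at the 44.8th percentile. E4 and WT had no peak within 20.9 kb of the promoter region, and a D3 peak of this rank in a longer list does not show that the promoter is bound in D3 only.

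The paralogues PDS5A and PDS5B both carried a strong promoter region in all 3 lists and differed in their gene bodies. At PDS5A, chr4:39977605-39980239 covered the start and, at 2635 bp, was the widest of all 36 regions. It was at the 93.8th percentile in D3, the 91.6th in E4 and the 90.9th in WT. At PDS5B, chr13:33159741-33161661 (1921 bp) was at the 96.8th, 93.7th and 95.3rd. In both genes the rank of the promoter among regions called in all 3 lists differed by 2 points or less between WT and either clone.

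Inside PDS5A the 155 kb gene held 1 further region, chr4:39975231-39975593, called in D3 alone at the 26.9th percentile. The 192 kb gene PDS5B held 3, all called in all 3 lists. They lay 52.7 kb, 64.0 kb and 82.3 kb from the start, at chr13:33213312-33214547, chr13:33224525-33225443 and chr13:33242842-33244032. Their percentiles were 74.1, 84.1 and 75.4 in D3. In E4 they were 58.7, 69.4 and 38.7, and in WT 32.7, 69.6 and 72.0. The order of the 3 therefore differed between lists, the first being lowest in D3 and WT and the last in E4. Upstream of PDS5B by 4.58 kb, chr13:33154928-33155986 was called in D3 (67.6th) and E4 (48.7th) and not in WT. Density followed the same contrast, with 1.89 WT peaks per 100 kb at PDS5B and 0.571 at PDS5A.

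Over the windows of all 8 genes together there were 1.78 WT peaks per 100 kb, 1.86 in E4 and 2.78 in D3. All chromosomes except Y, from the first region to the last, gave 1.31, 1.34 and 1.96. That span is not limited to gene windows, no interval was computed, and the difference was not tested. The median percentile of the member peaks was 61.0 in D3 (36 peaks), 64.05 in E4 (24) and 61.4 in WT (23). A whole list has a median of 50 by construction. The intervals of the member medians were 43.1 to 75.4 in D3, 38.7 to 83.8 in E4 and 23.4 to 89 in WT. Each interval held 50, so the median rank of the member peaks was not distinguishable from that of their whole list. Over the 22 member regions called in all 3 lists the median difference in rank was −0.683 points between WT and D3 and −1.29 points between WT and E4, and WT was the higher in 10 of 22 for each. The ranks of the group as a whole were thus close to level between lists, whatever single genes showed. The sign of these small medians changed to positive for both clones when only gene bodies were used, or when peaks under a −log10 q of 5 were dropped.

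At the edge of the windows, the outermost regions inside 10 kb were those of SMC3 at 9.52 kb and RAD21 at 9.28 kb. The first ones outside were a D3 region 10.2 kb from NIPBL (25.5th percentile) and the RAD21 region at 12.2 kb. With 50 kb there were 42 WT peaks around the 8 genes, and D3 overlapped 41 of these while E4 overlapped 38. The 1 WT peak that both clones lacked lay 22.5 kb upstream of CTCF, at chr16:67573379-67573845, and was at the 1.58th percentile of WT. E4 had a region of its own 39.4 kb past SMC3, chr10:112403827-112404171, at the 25.4th percentile of E4.

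A wider list of 17 genes of the same pathway was treated in the same way. It comprised the subunits SMC1A and STAG2, the factors WAPL, ESCO1, ESCO2, CDCA5, HDAC8, SGO1, ESPL1 and PTTG1, the germline paralogues CTCFL, SMC1B, REC8 and STAG3, and the DNA-binding factors ZNF143, YY1 and MAZ. Of its 38 regions 23 (60.5%, 43.4% to 76.0%) were called in all 3 lists and 11 in D3 alone, and E4 overlapped 22 of 23 WT peaks. A promoter peak in all 3 lists was present at 3 of the 17 genes. No WT peak of these genes within 10 kb was missing from both clones.

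The 3 promoters were those of STAG2, ESCO1 and CTCFL. At STAG2, the paralogue of STAG1, the promoter region was at the 87.4th percentile in D3, the 93.7th in E4 and the 89.7th in WT. At ESCO1, an acetyltransferase of SMC3, it was at the 98.9th, 99.2nd and 96.4th. At CTCFL, the germline paralogue of CTCF, it was weaker, at the 67.6th, 52.5th and 25.0th. Paralogues of both STAG1 and CTCF thus carried promoter peaks as well.

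By the strongest WT peak of each gene, the wider list was led by YY1 (98.5th percentile), ESCO1 (96.4th) and MAZ (91.3rd), and YY1 held a second peak at the 97.0th. WAPL, which releases cohesin from DNA, and REC8 had no peak in any list within 10 kb. SMC1A, SGO1 and SMC1B had peaks in D3 alone. By numbers of peaks in D3, E4 and WT, the windows most like that of RAD21 (3, 0 and 2) were ESCO1 (2, 1 and 2), SMC3 (3, 2 and 2) and STAG3 (3, 2 and 2), each with summed differences of 2 peaks over the 3 lists. None of these 3 had 0 peaks in E4, and RAD21 was the only one of the 25 genes with peaks in WT and none in E4.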

How the data were processed

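CTCF was measured by chromatin immunoprecipitation and sequencing, 1 library per population. MACS2 2.2.7.1, bedtools 2.29.2, Picard 2.23.1, CASAVA 1.8.2 and the build hg19 are listed in the submitters' processing notes. The aligner, settings and controls are not given in the sources used here. Per library the authors deposited 1 broad peak list, with a fold enrichment (a ratio) and −log10 p and q values per peak; the deposited score column was not used.

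Peaks of the 3 lists overlapping by 1 bp or more were merged into regions, and a region with several peaks of a list took the strongest. Gene bodies in hg19 were written from general knowledge; their lengths differed from RefSeq on another assembly by at most 3.68% for the 8 members and by 5% or less for 12 of 17 others. The RefSeq gene table gave names and neighbours only, and the promoter sequences are RefSeq's on GRCh38.p14. All 8 members and every region within 10 kb were named; of other genes, those with a promoter peak in all 3 lists, with WT peaks lacking in both clones, or among the 3 genes with the highest WT peak. Members and lists were chosen with earlier results of these data known. Python 3.11.15, pandas 2.3.3 and scipy 1.17.1 were used, and the overlap, merging and ranking steps were tested on simulated lists. Alternatives were other flanks, thresholds, overlaps, list lengths, promoter distances and ranks by fold.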

Additional observations from a re-analysis of the deposited data

Results flagged for a closer look

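The window of RAD21 stood out because D3 had more peaks there than WT and E4 fewer: 3 in D3, 0 in E4 and 2 in WT, a difference of 3 peaks between D3 and E4. With 1 library per population, this difference was not tested. Cutting every list to the same length gave 2, 0 and 2, so that D3 no longer lay above WT. None of the other 7 members had more peaks than WT in one clone and fewer in the other. NIPBL had the same difference of 3 between the clones (8 in D3, 5 in E4), both above its 4 in WT.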

How the results depend on the processing

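No paired analysis was possible because each population has 1 library, numbered 1 in all of them. For the same reason no replicate was left out in turn. Ranks by fold at NIPBL, CTCF and the CTCF promoter, and equal list length at both genes, were added after seeing the data. Of 83 alternatives over 21 results, 65 stayed within the interval or near the main count (1.5 times), while 14 moved and 4 changed sign. For NIPBL and CTCF the interval was the lowest to highest difference among their regions. For the CTCF promoter it was the 5% to 95% range over all regions called in all 3 lists. Neither of these ranges is a confidence interval. With 50 kb flanks there were 64 regions, 38 of them in all 3 lists, and D3 and E4 overlapped 5 and 3 of the RAD21 WT peaks. With gene bodies alone there were 23 regions, 14 in all 3 lists, 1 RAD21 WT peak overlapped by D3, and rank differences of 0.138 (D3) and 0.344 (E4). With a −log10 q of 5 or more, 14 regions were in all 3 lists, E4 and both clones overlapped 100% of 13 WT peaks, and the rank differences were 0.225 (D3) and 4.2 (E4); no WT peak was left at RAD21, so no value was obtained there. With 50% coverage D3 kept 1 RAD21 peak. With ranks by fold the median difference at CTCF rose from 10.1 to 20.1 points for D3 and from 5.95 to 21 for E4, and at its promoter from 21.7 to 46.5 and from 13.8 to 48.2. Wider flanks and shorter lists change counts by construction; the cause of the other moves was not tested. Unknown depth limits statements on weak peaks.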

Other observations

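Inside CTCFL, which is normally active in male germ cells, 4 regions were called in all 3 lists, and together with the promoter region they gave 8.83 WT peaks per 100 kb. The density was higher at MAZ, 11.96, and lower at YY1, 6.64. The CTCFL length used, 36627 bp, differed from the 29688 bp of RefSeq, so the CTCFL density and the places inside CTCFL are approximate. The intragenic region chr20:56070014-56071049 was at the 95.1st percentile in D3, the 91.2nd in E4 and the 76.3rd in WT. By contrast CTCF, over a longer gene, had 1 intragenic region, with a peak in each clone but none in WT. Past the end of STAG3, the germline paralogue of STAG1, chr7:99814377-99816178 was at the 98.8th, 93.4th and 87.7th percentile. WAPL had a region called in WT alone 17.8 kb upstream, chr10:88299343-88300098, at the 6.42nd percentile of WT. These values were chosen after they were seen and were not tested.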
